A study of Mus musculus with 8 samples.

Results

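Of the 46078 genes in a count table of mouse germinal vesicle (GV) oocytes, 10 encode the core proteins that write, read or erase N6-methyladenosine (m6A) on RNA, and they were chosen by symbol: the writers Mettl3, Mettl14 and Wtap, the readers Ythdf1, Ythdf2, Ythdf3, Ythdc1 and Ythdc2, and the erasers Alkbh5 and Fto. All 10 passed the filter on low counts and were among the 19241 genes tested. RNA was measured in 2 groups of 4 libraries, each library made from 100 fully grown GV oocytes. The oocytes were collected 48 h after 5 IU PMSG from 4-week-old females on a C57BL/6J background and held at that stage with dbcAMP. CNOT7&8 KO oocytes (KO) came from mice with floxed Cnot7 and floxed Cnot8 and the Zp3-Cre transgene, and control oocytes came from Zp3-Cre mice, so that both groups carried Cre. The Zp3 promoter drives Cre in growing oocytes, so deletion took place during growth and the libraries show the state at its end. The labels do not say whether the libraries of a group came from separate mice, and p-values then measure the spread between these libraries only. These are bulk RNA values, in which fewer oocytes with a transcript and less transcript per oocyte cannot be told apart.

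m6A is placed on mRNA in the nucleus by a complex of METTL3, the catalytic subunit, METTL14, which helps to hold the RNA, and WTAP, an adaptor that anchors the pair to further subunits. Proteins with a YTH domain bind the mark, and the cytoplasmic reader YTHDF2 can bring the CCR4-NOT complex to a marked mRNA, where the deadenylases CNOT7 and CNOT8 shorten the poly(A) tail. ALKBH5 and FTO remove the methyl group, and in oocytes, where transcription stops at the end of growth, mRNA stability, tail length and m6A shape which maternal mRNAs are kept and translated.

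The control of tail length in oocytes runs in part through the cytoplasmic polyadenylation element (CPE), the site of CPEB proteins in the 3′UTR. The letters TTTTAT were written as DNA and searched on the mRNA strand only. They occurred in the longest annotated 3′UTR of 8 of the 10 genes and were absent from those of Mettl3 and Alkbh5. This was the longest over the protein-coding transcripts of a gene and need not be that of the full-length coding mRNA. The limit touches Wtap, Mettl14 and Fto. In Fto the last copy, at chr8:91526031-91526056, lay 184 bases before the end of the 3′UTR used, while the gene runs on to base 91668439. Of 15125 tested protein-coding genes with a 3′UTR of at least 50 bases, 56.2% held the same letters, and the median 3′UTR was 1119 bases over those genes against 2309.5 bases over the 10. Both copies of Ythdf1 and the last copy of Ythdf2, Ythdf3, Mettl14 and Wtap are shown. They stand for the cytoplasmic readers and the writers that hold the letters. The Wtap copy lay 408 bases before the end of the 3′UTR used, of 2607 bases, while the gene runs on to base 12966796. The longest annotated Wtap transcript is 3187 bases. The Wtap 3′UTR used may thus not be that of the transcript for the full protein. Each line gives 26 bases of GRCm38 in the direction of the mRNA, with the element in capitals.
Ythdf1 copy at base 305, chr2:180905322-180905347, minus strand: ccaaagatatTTTTATtttggcagaa
Ythdf1 copy at base 771, chr2:180904856-180904881, minus strand: tgtcttaagtTTTTATaccagtaacg
Ythdf2 copy at base 1911, chr4:132184998-132185023, minus strand: ctgccaaactTTTTATtataaaatat
Ythdf3 copy at base 2463, chr3:16216431-16216456, plus strand: tatgtgggtaTTTTATttttaatggt
Mettl14 copy at base 6395, chr3:123368326-123368351, minus strand: gtaactccttTTTTATtttgctataa
Wtap copy at base 2194, chr17:12973083-12973108, minus strand: ttcccttcatTTTTATcttctaggta

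Positions in these lines count from the first base of the 3′UTR. The last copy lay 39 bases before the annotated end in Mettl14 and 96 bases before it in Ythdf2, which held 3 copies. The longest annotated 3′UTR of Mettl14, of 6439 bases, held 11 copies. The longest annotated Mettl14 transcript is 7197 bases, so little is left beside this 3′UTR for the coding part. It may thus not be the 3′UTR of the transcript for the full METTL14 protein. In Ythdf1 the nearer copy lay 489 bases from the end. Other elements were counted in the same way: TTTTAAT, a variant CPE, occurred in 6 members against 31.4% of the 15125 genes, TGTAAATA, a Pumilio element, in 2 against 11.99%, ATTTA, the core of AU-rich elements, in 10 against 69.8%, and GGACT, a core of the m6A consensus, in 6 against 62.0%. A match of letters is a description and not a measured site. Longer 3′UTRs hold more matches, and 3′UTR length was not matched here.

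Libraries held between 8639444 counts (KO replicate 1) and 44092144 counts (control replicate 1), and the lowest count of any member in a library was 80, for Fto. Counts scaled to the library total (CPM) were adjusted by TMM, with factors of 0.849 to 0.943 in control and 1.07 to 1.14 in KO libraries. On the second principal component, control replicate 1 (40.1) and KO replicate 4 (52.1), the deepest libraries of their groups, lay on one side, and KO replicate 1 (-44.0), the shallowest library, lay on the other, with the remaining 5 between -17.0 and -3.31. Calls of members that change without control replicate 1 and KO replicate 4 together, or without any single library, are given with those values. Without KO replicate 1 the call of no member changed. For further genes of the pathway the counts of calls are given as ranges over the single libraries left out. As a check of the labels, Cnot8 fell to 21.0% of control (log2 fold change -2.25), whereas Cnot7 was at 77.0% (log2 fold change -0.38, edgeR quasi-likelihood adjusted p = 0.0105; -0.092 and adjusted p = 0.385 when scaled by library size only). Counts cover the whole of each gene and do not separate the deleted part from the rest. The reason for the remaining Cnot7 reads was not tested. The paper reports that both proteins were depleted in KO oocytes by immunoblot. The 10 oocyte markers were detected in both groups. By the edgeR quasi-likelihood test Zp1, Zp3, Figla and Oosp1 were lower and Ddx4 higher in KO oocytes. Of all tested genes 24.1% were lower and 31.2% higher. The summed levels of the 10 markers with TMM did not overlap, at 16919 to 19871 CPM in control and 14736 to 16884 CPM in KO libraries. This depended on the scaling, and without the TMM factors the ranges of the groups overlapped.

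In KO oocytes the writers Mettl3, Mettl14 and Wtap were lower and the readers Ythdf1 and Ythdf2 higher, the latter in 14 of 18 alternative settings, and Ythdf3, Ythdc1, Ythdc2, Alkbh5 and Fto did not pass the test. A difference between the roles was not tested. At an edgeR quasi-likelihood adjusted p of at most 0.05, 2 of the 10 were higher and 3 lower, where the background over all tested genes was 31.2% higher and 24.1% lower, so that both counts are near the background. Only Ythdf1 also reached the fold change of 2 that defined a differentially expressed gene (DEG), a rule met by 23.8% of all genes upward and 6.56% downward. The median log2 fold change was -0.23 over the 10 genes and 0.12 over all 19241. The 4 KO libraries lay above all controls for 2 members and below all controls for 3, against 27.0% and 21.4% of all genes.

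**Figure D1:**
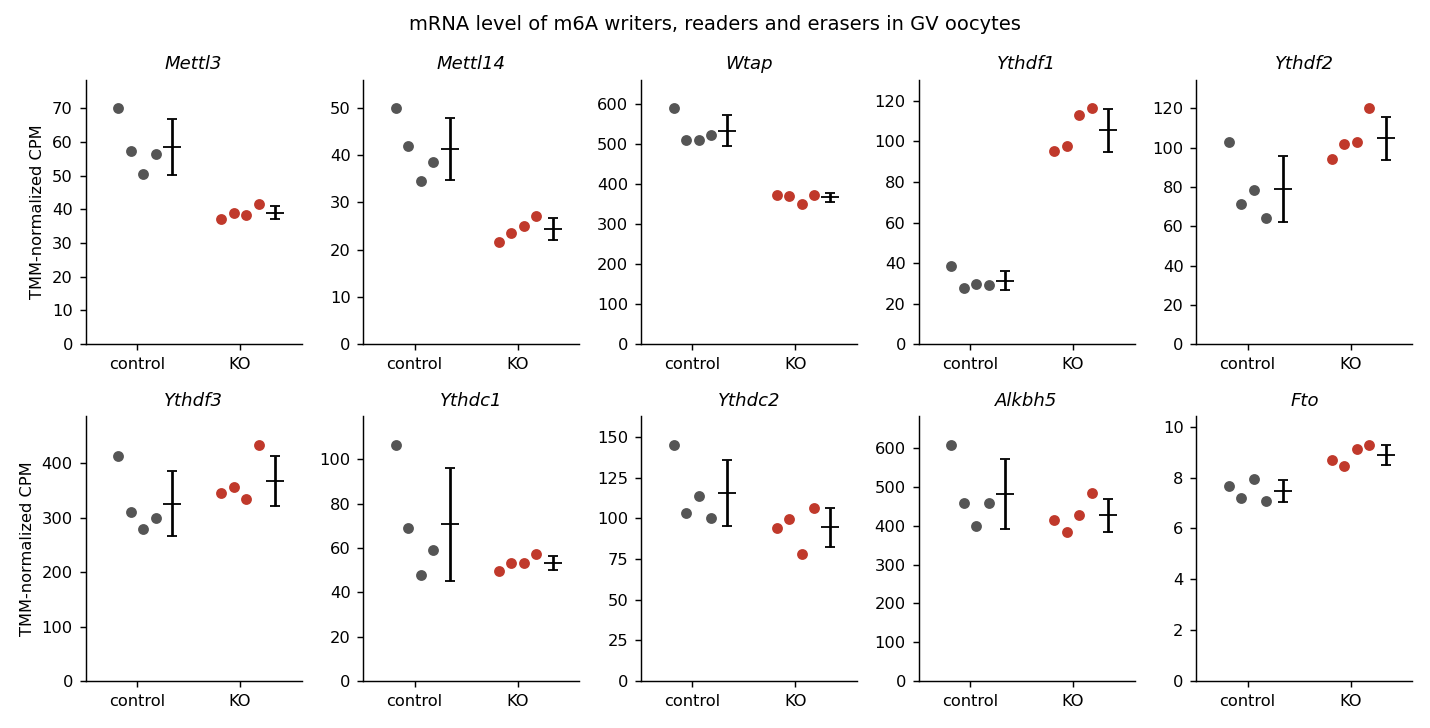
TMM-normalized CPM of each gene on a linear axis from 0, with 1 point per library (replicates 1 to 4 from left to right, grey control and red KO) and the mean with its SD beside them. The 3 writers in KO oocytes lay below every control library, Ythdf1 rose from 31.4 to 106 CPM, and control replicate 1 was the highest control for every gene but Fto.

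Mettl3, the catalytic subunit of the writer, was at 70.03, 57.2, 50.4 and 56.3 CPM in control replicates 1 to 4 and at 37.1, 39.0, 38.2 and 41.7 CPM in KO replicates 1 to 4. Every KO library lay below every control, and control replicate 1 was the highest. The mean fell from 58.5 ± 8.26 to 39.0 ± 1.94 CPM (SD, n = 4 each), a log2 fold change of -0.58 ± 0.13 (SE) with an edgeR quasi-likelihood adjusted p of 0.00191. The exact two-sided permutation test over the 70 assignments of libraries gave p = 0.0286, the smallest it can give. Mettl3 (chr14:52294841-52305128, minus strand) overlaps Tox4, which lies on the other strand and shares 933 bases, or 18.4%, of its exons. The strand setting of the counting is not given in the sources used here, so reads in that stretch could not be assigned to one gene with certainty. Tox4 moved in the opposite direction, from 20.2 ± 4.41 to 35.5 ± 2.31 CPM (log2 fold change 0.81).

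Mettl14, the RNA-binding partner of METTL3, was at 49.96, 42.0, 34.6 and 38.6 CPM in the control libraries and at 21.7, 23.6, 25.1 and 27.0 CPM in the KO libraries. The groups did not overlap. Its log2 fold change was -0.76 ± 0.14 (SE; edgeR quasi-likelihood adjusted p = 0.000733; exact permutation p = 0.0286), and the KO mean was 59.0% of the control mean. Mettl14 is at chr3:123368297-123386108 on the minus strand.

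Wtap, the adaptor of the writer, was the most abundant of the 3 by reads, at 591, 512, 509.8 and 523 CPM in control and 374, 370.5, 350.5 and 373 CPM in KO libraries. The KO libraries again lay below all controls and close to one another. The mean went from 534 ± 38.5 CPM to 68.8% of it, a log2 fold change of -0.54 ± 0.094 (SE; edgeR quasi-likelihood adjusted p = 0.000458; exact permutation p = 0.0286). Wtap is at chr17:12966796-12994169 on the minus strand. The calls of Mettl3, Mettl14 and Wtap passed in 18 of the 18 alternative settings run, with log2 fold changes of -0.65 to -0.29, -0.84 to -0.47 and -0.56 to -0.26.

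Within the writer, subunits were compared as log2 ratios of counts per exon length in each library. The log2 ratio of Wtap to Mettl3 was 2.90 ± 0.11 in control and 2.94 ± 0.074 in KO libraries, and the groups overlapped. The log2 ratio of Mettl3 to Mettl14 was 1.05 ± 0.047 in control and 1.23 ± 0.081 in KO libraries, which did not overlap. A ratio within a library does not depend on how the libraries are scaled. Both ratios use Mettl3 counts, which may hold reads of Tox4 from the shared exon bases, and their part in the ratios was not tested.

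Ythdf1, a cytoplasmic reader linked to the translation of m6A mRNAs, was at 38.5, 27.8, 29.9 and 29.4 CPM in control and at 95.4, 97.6, 113 and 116 CPM in KO libraries. All KO libraries lay far above all controls. The mean rose 3.36-fold, from 31.4 ± 4.78 to 106 ± 10.6 CPM, a log2 fold change of 1.75 ± 0.13 (SE; edgeR quasi-likelihood adjusted p = 1.07e-06; exact permutation p = 0.0286). Across the 18 alternatives the log2 fold change was 1.69 to 2.04 and the adjusted p at most 1.36e-05. Among 6314 genes of a mean of 10 to under 100 CPM, where the median log2 fold change was -0.17, Ythdf1 lay above 94.2%, and 369 genes including Ythdf1 were at or above its value. Ythdf1 is at chr2:180904377-180920949 on the minus strand.

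Ythdf2, the reader known to bring CCR4-NOT to mRNAs, was at 103, 71.5, 78.2 and 64.1 CPM in control and at 94.1, 102, 103 and 120.1 CPM in KO libraries. Control replicate 1 lay among the KO libraries, and the other 3 controls lay below all of them. The mean rose 1.32-fold from 79.1 ± 16.7 CPM, a log2 fold change of 0.40 ± 0.15 (SE; edgeR quasi-likelihood adjusted p = 0.0353), whereas the exact permutation test gave p = 0.0857. The call was lost without control replicate 2 (log2 fold change 0.36, adjusted p = 0.0954), control replicate 3 (0.40, adjusted p = 0.0717) or control replicate 4 (0.32, adjusted p = 0.106). Without control replicate 1 and KO replicate 4, an alternative added after seeing the data, the log2 fold change was 0.48 with an adjusted p of 0.000898. Ythdf2 is at chr4:132184912-132212303 on the minus strand.

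Ythdf3, the third cytoplasmic paralogue, was at 413, 311, 279 and 300.1 CPM in control and at 345, 357, 334 and 434 CPM in KO libraries. The groups overlapped through control replicate 1, and the log2 fold change of 0.17 ± 0.14 (SE) did not pass (edgeR quasi-likelihood adjusted p = 0.301; exact permutation p = 0.314). It passed without control replicate 1 (0.31, adjusted p = 0.0228) and without control replicate 1 and KO replicate 4 (0.22, adjusted p = 0.0258). Ythdf3 is at chr3:16183212-16217037 on the plus strand.

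The make-up of the Ythdf mRNAs differed between the groups. Of the summed Ythdf1, Ythdf2 and Ythdf3 reads per exon length in a library, Ythdf1 made up 10.2% to 11.5% in control and 24.7% to 28.7% in KO oocytes. The Ythdf2 share was 19.7% ± 1.74 in control and 18.6% ± 0.368 in KO oocytes, with overlapping ranges. Ythdf3 held 66.6% to 71.0% in control and 52.4% to 56.9% in KO oocytes. Ythdf3 was the largest share in every library. The log2 ratio of Ythdf1 to Ythdf2, per exon length, turned from -0.86 ± 0.13 in control (-0.95 to -0.66) to 0.48 ± 0.090 in KO libraries (0.40 to 0.60). By length, Ythdf2 thus exceeded Ythdf1 in every control library, and Ythdf1 exceeded Ythdf2 in every KO library.

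**Figure D2:**
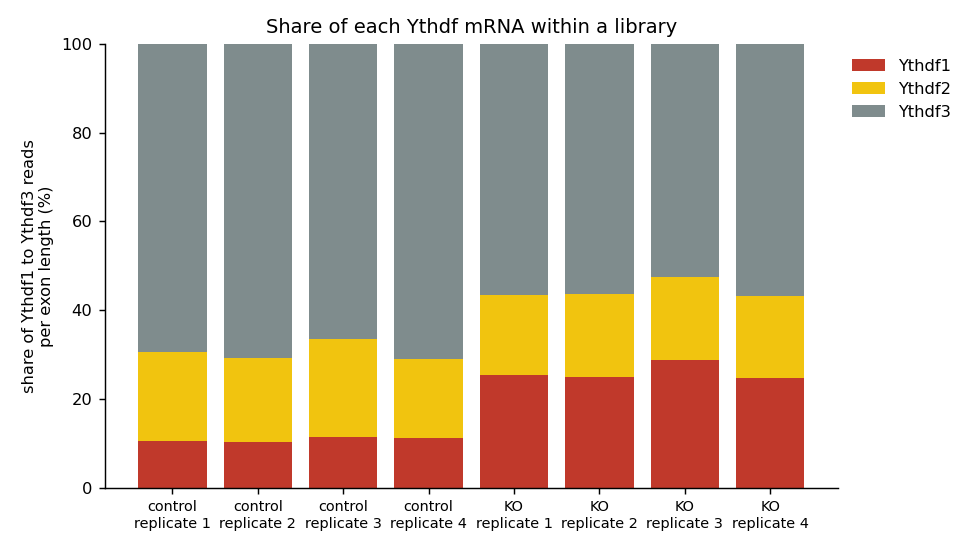
Share in percent of Ythdf1, Ythdf2 and Ythdf3 in the sum of their reads per exon length, 1 stacked bar for each of the 8 libraries. The red Ythdf1 part ends at 10.2% to 11.5% in the 4 control bars and at 24.7% to 28.7% in the 4 KO bars.

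Ythdc1, the nuclear reader that acts in splicing and 3′ end choice in oocytes, was at 107, 68.8, 47.9 and 59.3 CPM in control and at 49.7, 53.1, 53.0 and 57.3 CPM in KO libraries. The KO libraries were close together and lay within the wide control range. Its log2 fold change of -0.41 ± 0.20 (SE) did not pass (edgeR quasi-likelihood adjusted p = 0.103; exact permutation p = 0.229), but passed without control replicate 3, the lowest control (-0.56, adjusted p = 0.0271), and was -0.18 without control replicate 1 and KO replicate 4. Ythdc1 is at chr5:86804221-86836659 on the plus strand and shares 631 exon bases with a lincRNA gene that had no counts.

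Ythdc2, an RNA helicase with a YTH domain that acts in meiotic germ cells, was at 145, 103, 114 and 100.5 CPM in control and at 94.3, 99.6, 78.2 and 106 CPM in KO libraries. The groups overlapped. The log2 fold change of -0.29 ± 0.14 (SE) did not pass (edgeR quasi-likelihood adjusted p = 0.101; exact permutation p = 0.114) and came to -0.0021 when libraries were scaled by size only.

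Alkbh5, the more abundant eraser, was at 609, 459, 400.2 and 458 CPM in control and at 415, 383, 427 and 485 CPM in KO libraries. Apart from control replicate 1 the libraries of both groups spanned a similar range. The log2 fold change was -0.17 ± 0.13 (SE; edgeR quasi-likelihood adjusted p = 0.294; exact permutation p = 0.371), and its sign depended on the scaling. Alkbh5 is at chr11:60536381-60558512 on the plus strand.

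Fto, the other eraser, was at 7.67, 7.20, 7.96 and 7.06 CPM in control and at 8.68, 8.46, 9.12 and 9.29 CPM in KO libraries. All KO libraries lay above all controls, by a small step. The log2 fold change of 0.25 ± 0.15 (SE) did not pass across all genes (edgeR quasi-likelihood adjusted p = 0.169), and the exact permutation test gave p = 0.0286, unadjusted. Fto is at chr8:91313525-91668439 on the plus strand. The log2 ratio of Fto to Alkbh5 per exon length was -7.12 ± 0.27 in control and -6.71 ± 0.087 in KO libraries, which overlapped, with Alkbh5 far above Fto in every library.

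The scaling of the libraries turned the sign of Alkbh5 and moved Ythdf3 and Fto past the threshold. The median log2 fold change of all tested genes was 0.12 with TMM, 0.41 with library size only and 0.37 with TMM computed on genes of at least 10 CPM, and the share of all genes called was 40.2% higher and 13.6% lower with library size only. The Alkbh5 log2 fold change was 0.12 with library size only and 0.088 with the third scaling, below the median of all genes under each of the 3. Ythdf3 passed with library size only (0.46, adjusted p = 0.00566) and with the third scaling (0.43, adjusted p = 0.00448), and so did Fto (0.54, adjusted p = 0.00895, and 0.50, adjusted p = 0.0108). The directions of Mettl3, Mettl14, Wtap, Ythdf1 and Ythdf2 were the same under all 3. Most abundant genes were lower with TMM: of 2412 genes of at least 100 CPM, 55.3% were lower and 8.33% higher, with a median log2 fold change of -0.37. Beside these, Wtap lay above 34.7% of the genes of its band, Ythdc2 above 58.3%, Alkbh5 above 68.6% and Ythdf3 above 86.6%. In the band of 10 to under 100 CPM, where 36.8% were lower, Mettl14 lay above 16.9%, Mettl3 above 25.8%, Ythdc1 above 36.3% and Ythdf2 above 74.6%.

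**Figure D3:**
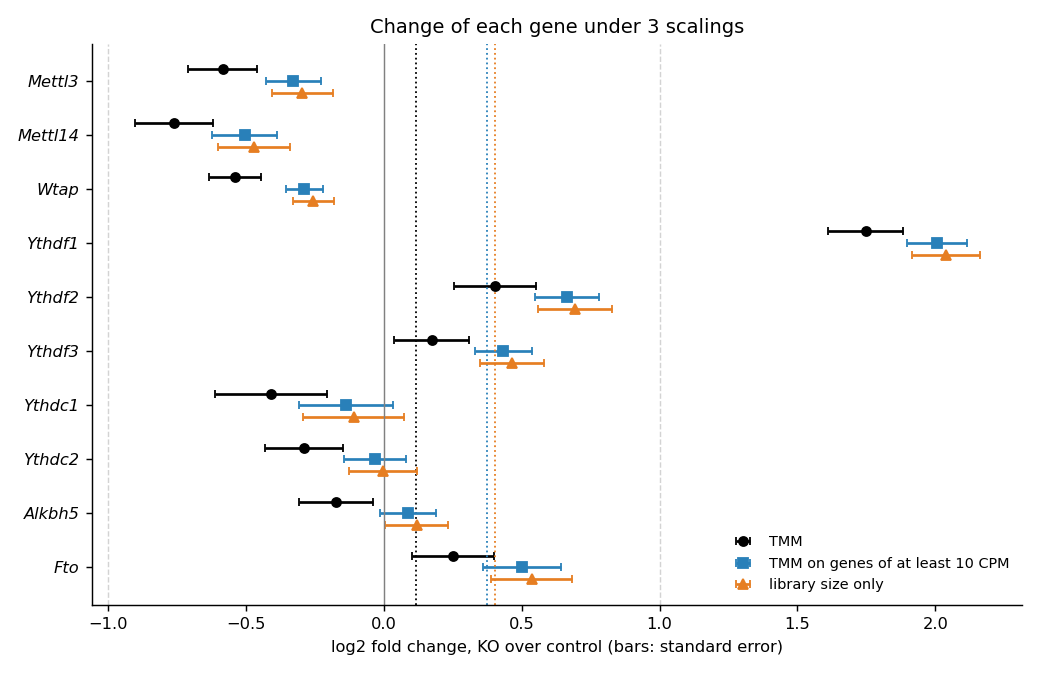
Log2 fold change of KO over control for each gene under 3 scalings, with bars for the standard error, dotted lines at the median of all tested genes under each scaling and dashed lines at a 2-fold change. Ythdf1 lies beyond the 2-fold line under all 3, the writers lie below 0 under all 3, and Alkbh5 changes sign.

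Levels can be compared between genes only per length, here as CPM per kb of annotated exon. The exons came from GENCODE vM21, and the annotation used for counting is not given, so the exons counted may differ. In control oocytes the order was Wtap (85.4), Alkbh5 (80.4), Ythdf3 (60.8), Ythdf2 (17.3), Ythdc2 (13.0), Mettl3 (11.5), Ythdf1 (9.47), Mettl14 (5.57), Ythdc1 (5.18) and Fto (0.574 CPM per kb). Neighbours in this order overlapped in their range over libraries except after Ythdf3, after Ythdf1 and after Ythdc1, which left 4 tiers. In KO oocytes Ythdf1 stood at 31.8 CPM per kb, rank 4 instead of 7, below Alkbh5 (71.4), Ythdf3 (68.5) and Wtap (58.8) and above Ythdf2 (22.9). The lower ranks were Ythdc2 (10.7), Mettl3 (7.69), Ythdc1 (3.90), Mettl14 (3.28) and Fto (0.682 CPM per kb). Here the ranges of neighbours overlapped only between Alkbh5 and Ythdf3 and between Ythdc1 and Mettl14. Among 15453 tested protein-coding genes, the level of Ythdf1 lay above 70.3% in control and above 90.6% in KO oocytes. Mettl14 went from above 61.4% to above 50.5%, and Fto was above 31.7% and 27.3%. With the length of the longest transcript in place of all exons, Mettl3 was at 27.1 CPM per kb in control and 18.1 CPM per kb in KO oocytes, Ythdc1 at 11.2 and 8.44 and Fto at 1.59 and 1.89, each more than 1.5 times the level above. Wtap then stood first in both groups (167 and 115 CPM per kb), Ythdf1 went from rank 8 to rank 4 with Ythdc1 just above it in control, and Fto stayed last.

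**Figure D4:**
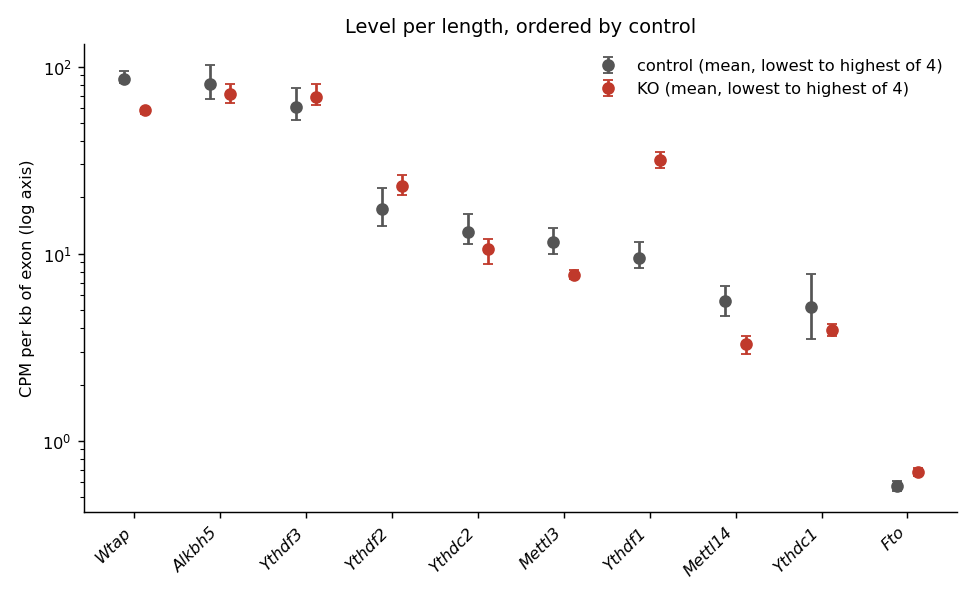
Mean CPM per kb of exon on a log axis for each gene, ordered by the control mean, with bars from the lowest to the highest of 4 libraries (grey control, red KO). Ythdf1 moved from 9.47 to 31.8 CPM per kb, and Fto was the lowest in both groups, at 0.574 and 0.682 CPM per kb.

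A list of 29 further genes of the pathway, chosen by role, was read from the same fit: 6 were higher, 8 lower and 15 did not pass (edgeR quasi-likelihood adjusted p of at most 0.05), where the background was 31.2% higher and 24.1% lower. The KO libraries lay above all controls for 7 of the 29 and below all controls for 7, against 27.0% and 21.4% of all genes. Their median log2 fold change was -0.13. There were 5 DEGs up and 1 down, against 23.8% and 6.56% of all genes.

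Among 5 partners of the writer, 2 were higher and 2 lower. Virma, the scaffold of the complex and the most abundant of them, went from 248 ± 60.7 to 175 ± 23.7 CPM (log2 fold change -0.50, edgeR quasi-likelihood adjusted p = 0.0184), but its call was lost with library size only (-0.21, adjusted p = 0.214) and with TMM on genes of at least 10 CPM (-0.24, adjusted p = 0.127). Zc3h13, which keeps the complex in the nucleus, was lower by the same test (log2 fold change -0.80), and Rbm15, an RNA-binding subunit, was higher (0.85). Cbll1, a RING-domain subunit, rose from 7.95 ± 1.94 to 16.1 ± 6.76 CPM (log2 fold change 1.02, edgeR quasi-likelihood adjusted p = 0.00621). The log2 fold change was under the 2-fold line without KO replicate 4 (0.70), without control replicate 2 (0.96), 3 (0.97) or 4 (0.95) and without control replicate 1 and KO replicate 4 together (0.87), while the adjusted p passed in 18 of 18 alternatives.

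Of 6 other methyltransferases or cofactors, 2 were lower and none higher. The lower ones were Mettl16, which methylates U6 snRNA and the Mat2a mRNA (log2 fold change -0.63), and Trmt112, a cofactor of METTL5 (-0.67), whose call was lost with library size only (-0.39, adjusted p = 0.109) and with TMM on genes of at least 10 CPM (-0.43, adjusted p = 0.0934). The most abundant, Mettl4, was at 71.4 ± 9.11 and 64.4 ± 3.51 CPM and did not pass (-0.15, adjusted p = 0.300 by the edgeR quasi-likelihood test). The 3 genes of methyl donor supply did not pass. Mat2b, the regulatory subunit of the enzyme that makes S-adenosylmethionine, was at 1220 ± 192 and 1116 ± 67.1 CPM (-0.13, adjusted p = 0.377 by the same test).

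The other m6A binders moved in both directions, with 3 of 8 higher and 2 lower. Igf2bp1, a reader that stabilizes mRNAs, rose from 0.499 ± 0.106 to 5.33 ± 1.33 CPM (log2 fold change 3.36 ± 0.28 (SE); edgeR quasi-likelihood adjusted p = 1.75e-06), while its paralogue Igf2bp2 fell from 330 ± 40.3 to 205 ± 7.89 CPM (-0.69 ± 0.11; adjusted p = 0.000214 by the same test). Igf2bp2 remained more abundant than Igf2bp1 by reads in KO oocytes. Fmr1, an RNA-binding translational repressor, rose from 23.3 ± 8.04 to 54.9 ± 12.9 CPM (1.23; adjusted p = 0.000766 by the same test). Rbmx, a nuclear binder of RNA that m6A opens, rose from 1.03 ± 0.163 to 7.18 ± 1.46 CPM (2.80; adjusted p = 1.88e-06 by the same test), a value that is uncertain because near-identical retrocopies can share its reads.

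Partners of the YTH readers held the largest rise and the largest fall in this list. Meioc, the protein that works with YTHDC2 in meiotic germ cells, rose from 4.79 ± 0.944 to 58.2 ± 10.8 CPM (log2 fold change 3.59 ± 0.20 (SE); edgeR quasi-likelihood adjusted p = 1.16e-07), a 12.2-fold rise, while Ythdc2 itself did not pass. Upf1, the helicase of nonsense-mediated decay that also acts with YTHDF2, fell from 337 ± 76.2 to 119 ± 26.5 CPM (-1.50 ± 0.19; adjusted p = 4.16e-05 by the same test). Rida, which links YTHDF2 to an endonuclease, was also lower by this test (-0.43), and its call was lost under the same 2 scalings (-0.15, adjusted p = 0.301, and -0.18, adjusted p = 0.221). The other 4 of the 7 partners did not pass.

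**Figure D5:**
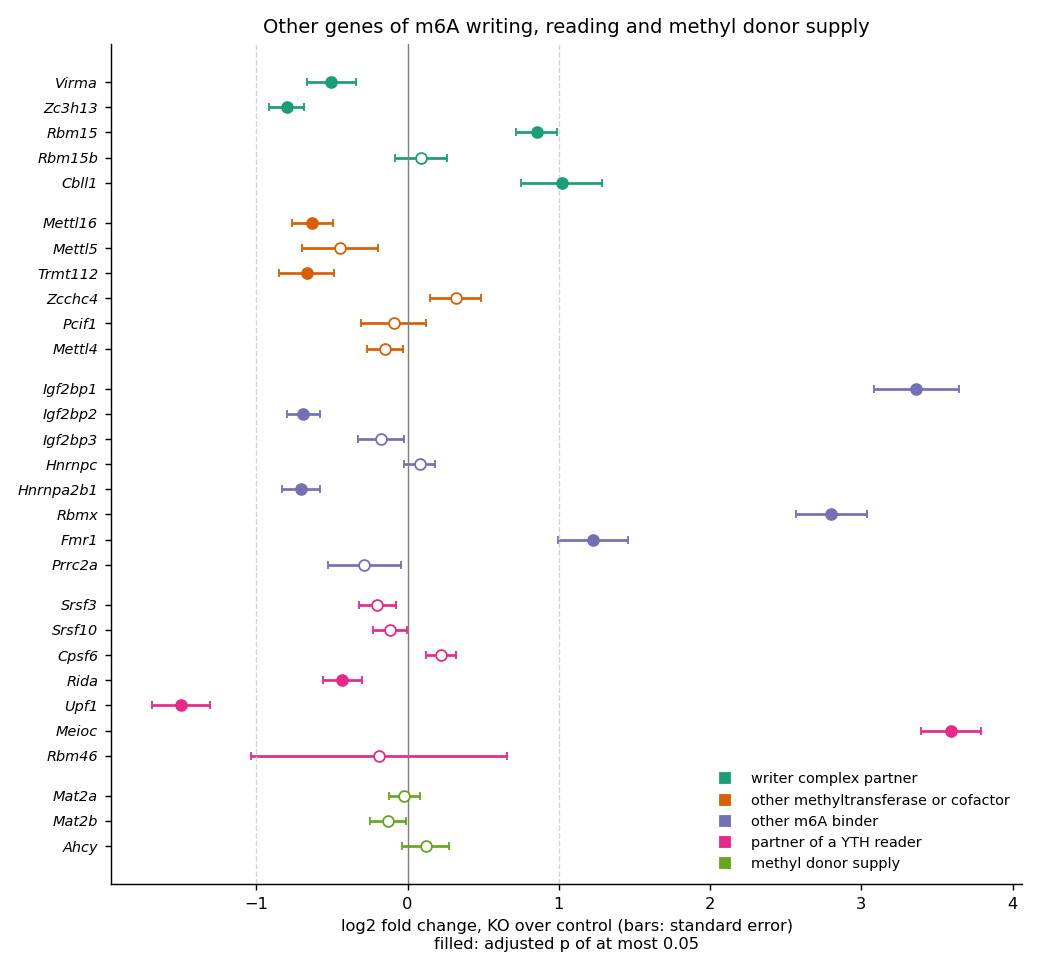
Log2 fold change of KO over control for 29 further genes of the m6A pathway, grouped and coloured by role, with bars for the standard error and filled points at an adjusted p of at most 0.05. Meioc (3.59), Igf2bp1 (3.36) and Rbmx (2.80) lie far to the right, and Upf1 (-1.50) is the only point left of the 2-fold line on the lower side.

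For 3 members, one of each role, the genes with the most similar pattern were found among 8717 tested genes of a mean of at least 10 CPM, by the root mean square difference of centred log2 CPM over the 8 libraries. Nearest to Mettl3 were Mettl16 (0.029), Prune (0.045) and Rbbp7 (0.045). For Ythdf2 they were Ift80 (0.048), Pter (0.064) and Ddx10 (0.064), and for Alkbh5 they were Cdh1 (0.038), Clptm1l (0.050) and Samd7 (0.052). These differences, in log2 units, are a description over libraries that share depth and scaling.

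Markers of other ovarian cells were read beside the members. According to the study's methods, cumulus cells had been stripped from the oocytes with hyaluronidase and pipetting. Of 14 granulosa or cumulus markers, 13 were tested, and 6 were higher (Fshr, Inha, Inhba, Kitl, Nr5a2 and Fst) and 1 lower (Cyp19a1). Over all tested genes 31.2% were higher and 24.1% lower. The summed levels of the 14 markers were 131 to 176 CPM in control and 219.9 to 279 CPM in KO libraries. Most of these sums came from Nr5a2 (means of 56.6 CPM in control and 122 CPM in KO oocytes) and Cyp19a1 (58.4 and 31.3 CPM). Kitl (16.0 and 43.4 CPM) and Inha (6.86 and 25.9 CPM) came next. Foxl2 was at most 0.109 CPM in any library, Amh at most 1.70 CPM and Amhr2 at most 1.52 CPM. By library, KO replicate 4 lay within or below the control range for Inha (4.77 CPM), Inhba (1.63 CPM) and Fst (1.53 CPM), and above every control for Kitl (40.1 CPM), Nr5a2 (132 CPM) and Fshr (3.34 CPM). The 4 theca or stroma markers summed to 1.09 to 2.35 CPM in control and 1.05 to 2.01 CPM in KO libraries. Of 8 markers of blood and vessels, the globins Hbb-bs, Hba-a1 and Hba-a2 were at 0 in every library, and 2 were higher, Ptprc (means of 0.122 and 0.615 CPM) and Cd68 (1.20 and 3.24 CPM). Their sums, 88.4 to 109 CPM in control and 78.7 to 91.6 CPM in KO libraries, were almost all Pecam1 (86.7 to 108 and 73.3 to 88.0 CPM). The part of other cells in the changes of the m6A genes was not tested.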

How the data were processed

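RNA-seq was made by the authors from 100 GV oocytes per library. The labels name a stranded total RNA kit with ribosomal RNA removal and the paper's methods a stranded mRNA kit with ribosomal RNA depletion. The authors mapped 150-bp read pairs to GRCm38 with STAR 2.6.1d in nf-core/rnaseq and deposited raw read counts per gene, with no normalization, filter or pooling. Counting tool, annotation and strand setting are not given in the sources used here. Groups and replicate numbers came from the labels, and no 2 libraries agreed within counting noise.

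Genes of at least 0.2 CPM in 2 or more libraries (19241 of the 28353 with a count) were tested with edgeR 4.0.16 in R 4.3.3, by TMM scaling and the quasi-likelihood test over all of them, with p-values adjusted after Benjamini and Hochberg. A gene was a DEG at an adjusted p up to 0.05 and a change of 2-fold or more. CPM is counts over the TMM-scaled library size, and 3 counts made 0.068 CPM in the deepest and 0.347 CPM in the shallowest library, for counting error only. The test was tested on simulated data. Log2 ratios and shares were taken within a library. Positions, exon lengths and 3′UTRs came from GENCODE vM21 on GRCm38 (Python 3.11.15, pandas 2.3.3, matplotlib 3.10.9). Virma, Rida and Meioc carry older symbols in the table and were matched by gene ID.

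The members and lists were chosen with earlier results of these data known. Named genes were the 10 members, of the 29 related genes all DEGs and the most abundant of each role, the deleted Cnot7 and Cnot8, and for Mettl3, Ythdf2 and Alkbh5 the 3 most similar genes. Zc3h13, Rbm15, Mettl16, Trmt112, Rida, Tox4, Cpsf6, Zcchc4, Hnrnpc, Mat2a and Prrc2a were named after their values were seen. Alternatives were edgeR's exact test, DESeq2 1.42.0, other scalings, filters and lengths, the replicate number as a block, leaving out each library in turn and, added after seeing the data, leaving out control replicate 1 and KO replicate 4 together.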

Additional observations from a re-analysis of the deposited data

Results flagged for a closer look

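Of 56 groups of 4 libraries examined (each member, each further named gene, the deleted genes and the ratios), 10 held 1 library far from the other 3 by Dixon's test, where chance alone gives about 1 in 20, or 2.8. Control replicate 1, the deepest library, was high for Wtap (591 CPM, others 509.8 to 523 CPM), Cbll1 (10.9 CPM, others 6.70 to 7.14 CPM), Mat2b (1507 CPM, others 1098 to 1146 CPM) and Cnot7 (1049 CPM, others 886 to 900.1 CPM). KO replicate 4 was high for Cbll1 (26.1 CPM, others 12.02 to 14.1 CPM) and Igf2bp1 (7.32 CPM, others 4.56 to 4.78 CPM). KO replicate 3 was low for Wtap (350.5 CPM, others 370.5 to 374 CPM), for Meioc (42.1 CPM, others 61.9 to 65.1 CPM) and for the log2 ratio of Ythdc2 to Ythdc1 (1.18, others 1.51 to 1.54). Control replicate 2 was low for Rbmx (0.790 CPM, others 1.09 to 1.15 CPM).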

How the results depend on the processing

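Of 144 comparisons of a count of calls with an alternative, 134 stayed within 1.5 times the reported count. Members higher numbered 4 with library size only and 4 with TMM on genes of at least 10 CPM, and related genes 10 and 10 higher and 5 and 5 lower under the same scalings. The sign turned for Alkbh5 (0.12 and 0.088), Mat2b (0.16 and 0.13) and Mettl4 (0.14 and 0.11). Ythdf3 (0.46 and 0.43) and Fto (0.54 and 0.50) passed, and Virma (-0.21 and -0.24) and Cnot7 (-0.092 and -0.12) no longer passed. The cause was not tested.

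With the replicate number as a block, members higher numbered 1, because Ythdf2 (0.42, adjusted p = 0.0551) no longer passed, and Cbll1 (0.96) fell under the 2-fold line. The numbers do not pair the libraries: deviations of same-numbered libraries correlated at -0.12 to 0.11, the largest r of any pair was 0.37, and 1 of 8 libraries correlated best with its own number.

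Leaving out each library in turn gave 1 to 3 members higher, 3 to 4 lower, 1 up and 0 down by 2-fold, and related genes 6 to 7 higher, 8 to 9 lower, 4 to 5 up and 1 down. The log2 fold changes were 0.32 to 0.56 for Ythdf2, 0.11 to 0.31 for Ythdf3 and -0.56 to -0.14 for Ythdc1. Without control replicate 1 and KO replicate 4, Ythdf3 passed (0.22). Of the 15 related genes that did not pass the reported test, Cpsf6 passed in 6 of the 18 alternatives and Zcchc4 in 5. Hnrnpc and Mat2a passed in 2 each, Prrc2a in 1 and the others in 0.

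By the longest transcript, CPM per kb in control and KO was 27.1 and 18.1 for Mettl3, 167 and 115 for Wtap, 11.2 and 8.44 for Ythdc1 and 1.59 and 1.89 for Fto. Every alternative listed under processing gave a value. Of the members, Fto had the lowest count in a library, 80, and of the related genes Rbm46 (0), Igf2bp1 (5) and Rbmx (15) went lower.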
